A study of Homo sapiens with 6 samples.

Results

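The HuR sites described here lie inside a 4.6-Mb stretch of human chromosome 19, chr19:19700001-24300000 on hg19, in band 19p12, a region known for its cluster of KRAB zinc finger genes. They were chosen by position alone, as intervals of either strand lying wholly inside the stretch, and no interval crossed its borders. The cluster held 853 of 186157 sites in HuR replicate 1, 1705 of 405048 in replicate 2 and 2122 of 550681 in replicate 3. Of the lists made from the replicates together, the combined list had 2382 of 658853 sites in the cluster, and the combined list filtered by the authors on p had 1610 of 373845. The rest of chromosome 19 served as the comparison, with 5427, 9447 and 12465 sites in replicates 1, 2 and 3 and 15081 in the combined list.

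HuR (ELAVL1) is an RNA-binding protein that recognises U-rich and AU-rich RNA and is known for stabilising the messages it binds. KRAB zinc finger proteins are transcription factors in which a KRAB domain recruits the corepressor TRIM28 and an array of C2H2 fingers binds DNA. Many of them silence transposable elements. Their genes arose by repeated duplication and stand side by side in clusters, several of them on chromosome 19. ZNF91, a repressor of SVA retrotransposons, is a well-known gene of 19p12.

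All samples came from HEK293, a long-established line derived from human embryonic kidney, with no treatment named in the labels. Lysate was cut with micrococcal nuclease, and RNA was recovered with the anti-HuR antibody 3A2 (3 samples) or with normal mouse sera (3 negative controls). Values for the negative controls were not analysed here, so no background measured in them stands beside the values. The nuclease-treated lysate was pooled and then split between the reactions, so the spread between the 3 HuR lists may be technical only. A site is an interval on 1 strand with a LOD score above 0, the authors' measure, whose scale the sources used here do not give. Read depth is unknown. Annotation of the same build was not used here, so the label of the stretch was not checked against gene models and no gene, exon or UTR is named at a site. The sources used here do not say how reads that align to several near-identical zinc finger genes were handled, so a site may be shared between gene copies.

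Zinc finger coding sequence is itself repetitive, which bears on the spacing of sites described further on. In the longest GENCODE v29 transcripts of 236 chromosome 19 ZNF genes, the commonest distance between neighbouring copies of the same 12-nt word was 84 nt, with 27.1% of 71316 distances, followed by 168 nt with 14.9%. An 84-nt unit codes for 1 finger and its linker. The 3 consecutive units of the ZNF91 coding sequence (GENCODE v29, GRCh38) printed here make the repeat visible. They cover coding positions 865 to 1116, counted from the first base of the start codon, and read 5′ to 3′ on the coding strand. Capitals mark the 77 of 84 positions that are identical in all 3 units.
ZNF91 unit 1: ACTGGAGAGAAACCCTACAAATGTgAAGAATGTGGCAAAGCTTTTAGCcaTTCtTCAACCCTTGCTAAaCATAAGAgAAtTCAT
ZNF91 unit 2: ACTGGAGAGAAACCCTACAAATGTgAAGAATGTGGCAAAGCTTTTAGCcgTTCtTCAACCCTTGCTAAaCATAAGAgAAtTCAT
ZNF91 unit 3: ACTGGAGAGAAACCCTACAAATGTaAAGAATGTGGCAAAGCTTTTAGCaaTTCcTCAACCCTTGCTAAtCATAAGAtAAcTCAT

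HuR sites were denser in the zinc finger cluster than in the rest of chromosome 19 in every replicate. Replicate 1 had 185 sites per Mb in the cluster and 107 in the rest, replicate 2 had 371 and 186, and replicate 3 had 461 and 245. The ratio of cluster to rest was 1.74, 2.00 and 1.88 in the same order, a mean of 1.87 ± 0.129 (SD, n = 3). All 3 ratios lay above 1 by more than this spread. The combined list had 518 sites per Mb in the cluster and 296 in the rest. Covered sequence differed by somewhat more, with 9.36, 28.3 and 33.4 kb per Mb in the cluster against 5.32, 12.4 and 14.9 in the rest, a mean ratio of 2.09 ± 0.288 (SD, n = 3). Both strands showed it, with mean site density ratios of 1.83 on the plus strand and 1.93 on the minus strand. Against all other chromosomes the density ratio was 2.55. An exact sign-flip test over 3 lists cannot give a p-value below 0.25, so none is given here or for the other comparisons. Densities were not corrected for gene content or transcript abundance, and the rest of the chromosome also holds zinc finger genes. The length of the rest, 50.9 Mb, leaves out a 3.61-Mb stretch with no site in any list.

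The higher density came with more sites per occupied window and not with more occupied windows. Of the 460 10-kb windows of the cluster, 212 (46.1%) held a combined site on either strand, against 48.4% of windows in the rest. An occupied window held a median of 7 combined sites in the cluster and 4 in the rest, with means of 11.2 and 6.12. At least 20 combined sites were found in 45 occupied windows of the cluster (21.2%) and in 115 of the rest (4.66%). Sites on a strand were correspondingly close, with median gaps of 450, 250 and 230 nt in replicates 1, 2 and 3 in the cluster and 1040, 595 and 530 nt in the rest.

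**Figure D1:**
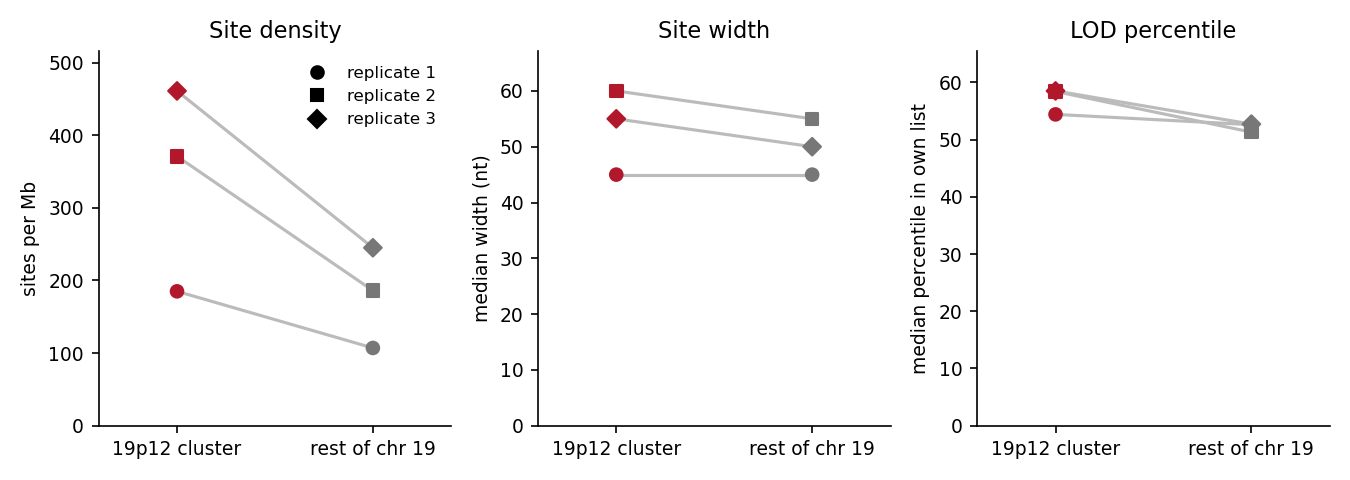
Site density (sites per Mb), median site width (nt) and median LOD percentile of HuR sites in the 19p12 cluster (red) and the rest of chromosome 19 (grey), with 1 marker shape per replicate and a line joining the values of a replicate. Density is higher in the cluster in all 3 replicates, while width is equal in replicate 1 and 5 nt greater in the cluster in replicates 2 and 3.

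Cluster sites were a little wider than other chromosome 19 sites in replicates 2 and 3 but not in replicate 1. Median widths were 45, 60 and 55 nt in the cluster and 45, 55 and 50 nt in the rest, a mean difference of 3.33 ± 2.89 nt (SD, n = 3), with all interval ends on a 5-nt grid. Wide sites showed the difference more clearly. Sites of at least 100 nt made up 6.10%, 19.3% and 17.7% of cluster sites in replicates 1, 2 and 3, against 4.74%, 13.5% and 11.1% in the rest. The widest cluster site spanned 305 nt in replicate 1, 935 nt in replicate 2 and 920 nt in replicate 3. In the rest, which has more sites, the widest spanned 500, 2630 and 1130 nt.

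Scores of cluster sites stood somewhat higher within their own lists. The median LOD percentile, the position of a score among all sites of its list, was 54.4, 58.4 and 58.5 in the cluster and 52.6, 51.3 and 52.7 in the rest. The difference was positive in every list, with a mean of 4.85 ± 2.78 percentile points (SD, n = 3), and smallest in replicate 1 at 1.73 points. Few cluster sites had very low scores. The lowest 10% of each list's scores took in 6.68%, 6.28% and 7.63% of cluster sites, against 10.0%, 11.7% and 12.1% of sites in the rest. The highest 10% took in 12.1%, 14.8% and 15.6%, against 11%, 11.7% and 13.6%.

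Within the cluster, HuR sites formed a few crowded stretches separated by nearly empty ones, and the 3 replicates followed the same profile. Across 46 bins of 100 kb, the number of sites per bin correlated between replicates with Pearson's r of 0.976 (replicates 1 and 2), 0.968 (1 and 3) and 0.992 (2 and 3), and Spearman's rho of 0.964, 0.961 and 0.987. These coefficients describe bins that share gene content and transcript abundance, so they do not measure binding alone. The leading 5 bins held 47.9% of the bases called in all 3 replicates and the leading 10 held 73.3%. No base was called in all 3 replicates in 15 bins, and 5 bins had no combined site.

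The megabase from 21000001 to 22000000 was the most crowded, with 387, 785 and 887 sites in replicates 1, 2 and 3. Its mean of 686 ± 264 (SD, n = 3) was the second highest of the megabases of chromosome 19. The next megabase, from 22000001 to 23000000, had 39, 80 and 124 sites and ranked 46. In replicate 3, the most crowded megabase thus had 887 sites and this next one 124. The megabase from 20000001 to 21000000 had 78, 191 and 261 sites and ranked 22. Its mean of 177 was close to the 179 sites per Mb of the rest, and the mean from 22000001 was 81. A higher density was therefore not found in every megabase of the cluster. The megabases ranked 1 and 3 to 6 on the chromosome lay outside it. Without the megabase from 21000001 the cluster's density ratio to the rest of the chromosome was 1.33 ± 0.102 (SD, n = 3), still above 1. The longest stretches without a site in any list were chr19:22937906-23237675 (300 kb), chr19:22273826-22570670 (297 kb) and chr19:22150291-22273795 (124 kb). All 3 overlap the sparse megabase from 22000001.

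The 5 bins with the most bases called in all 3 replicates each lay mainly on 1 strand. The bin chr19:21300001-21400000 had 5510 nt called in all 3, of which 5475 nt were on the plus strand, from 103, 163 and 170 sites in replicates 1, 2 and 3. Next came chr19:23500001-23600000 with 3740 nt, 3715 of them on the minus strand, and 74, 108 and 140 sites. The bin chr19:21900001-22000000 had 3660 nt, 3590 of them on the minus strand, and 74, 143 and 167 sites. In chr19:21200001-21300000 there were 3195 nt, 3170 of them on the plus strand, and 82, 172 and 189 sites. The fifth, chr19:24100001-24200000, had 2920 nt, all on the plus strand, and 56, 85 and 100 sites. Replicate 1 had the fewest sites in each of these bins and replicate 3 the most.

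**Figure D2:**
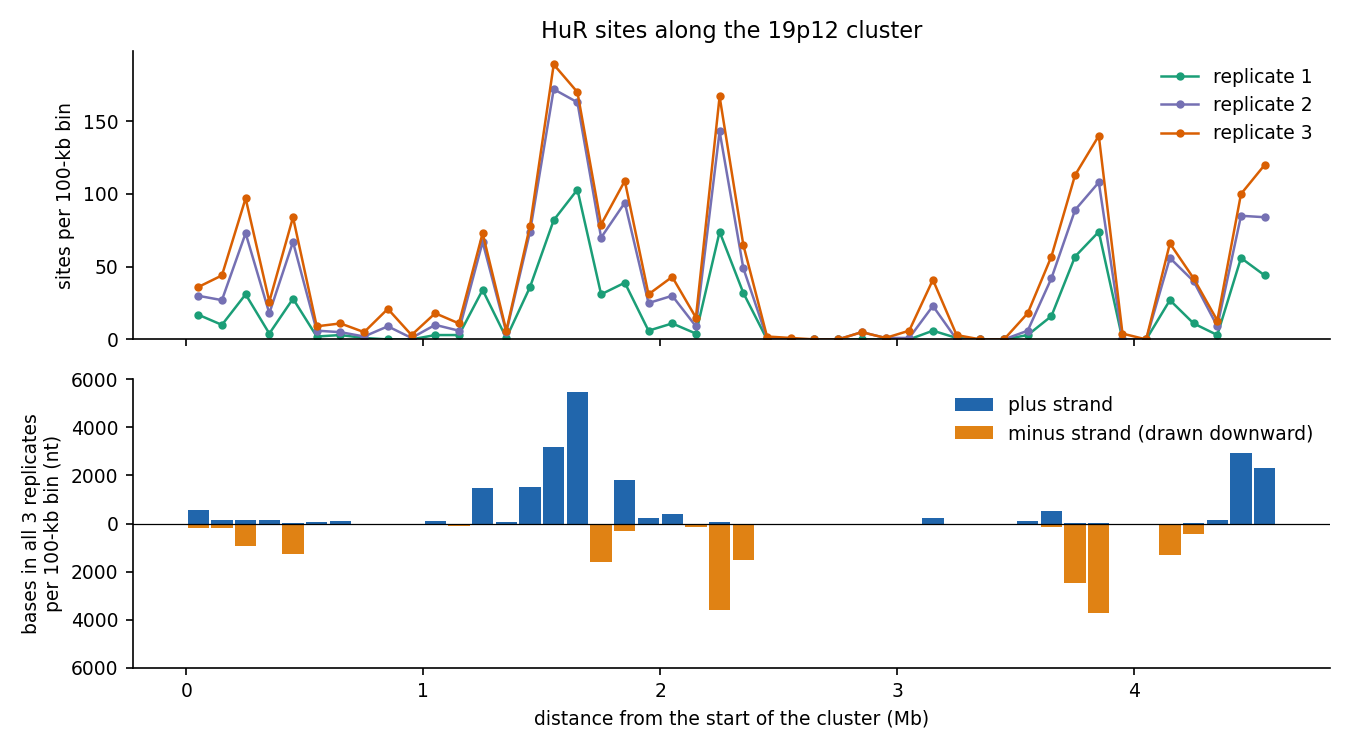
Top, sites per 100-kb bin in each replicate against distance from the start of the cluster (Mb). Bottom, bases called in all 3 replicates per bin (nt), plus strand upward and minus strand downward. The tallest bin has 5475 nt on the plus strand, and crowded bins of either strand alternate with bins that hold almost none.

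Most well-filled bins of the cluster were dominated by 1 strand, but not all. Of the 31 bins with at least 10 combined sites, 22 (71%) had at least 90% of them on 1 strand, against 134 of 322 (41.6%) in the rest of chromosome 19. Mixed bins included chr19:19900001-20000000, with 57 combined sites on the plus strand and 55 on the minus strand. The nearest neighbour of a site was on the same strand for 96.6%, 97.0% and 96.8% of cluster sites and for 92.0%, 94.3% and 92.9% of sites in the rest, a mean difference of 3.72 ± 0.990 percentage points (SD, n = 3). Against all other chromosomes the difference was 0.708 points. When combined sites of 1 strand no more than 5 kb apart were joined, the cluster had 130 runs, and 27 runs of at least 20 sites held 2035 sites, or 85.4%. In the rest, runs of that size held 53.7% of combined sites. A fixed gap joins more sites where sites are denser, so this share is not independent of density. Of these 27 runs, 16 were on the plus strand and 11 on the minus strand. The run with the most sites, chr19:21894681-21950345 on the minus strand, had 153 combined sites over 55.7 kb, and 56 of them overlapped all 3 replicate lists. It was followed by chr19:23517596-23583125 on the minus strand with 147 sites over 65.5 kb and by chr19:21325536-21378995 on the plus strand with 146 sites over 53.5 kb. Fragments of 1 transcript share its strand whichever protein is bound, and genes were not assigned to the runs.

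The densest 10-kb windows of the cluster ranked high on the chromosome. Windows were counted by strand and ordered by the bases called in all 3 replicates. Of 129 cluster windows with such a base, 5 (3.88%) were among the top 1% of chromosome 19, which began at 1290 nt, against 13 of 1573 (0.826%) in the rest. Cluster windows of rank 3, 4 and 5 had 1375, 1360 and 1315 nt, close to this cut. The cluster's share was 6.25% with the window grid shifted by 5 kb (0.629% in the rest). It was 2.59% with 5-kb windows (0.89% in the rest) and 3.1% when only the long-arm side was the comparison (0.842%). The median window had 135 nt in the cluster and 75 nt in the rest. The top 10% of windows held 39.9% of the recurrent bases in the cluster and 42.6% in the rest.

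The leading window, chr19:21300001-21310000 on the plus strand, had 2440 nt common to the 3 replicates, which is 24.4% of the window. Its rank was 3 on chromosome 19 and 8 over all chromosomes. It had 32, 31 and 34 sites in replicates 1, 2 and 3. Replicate 1 thus did not have the fewest sites there, although it had the fewest in the cluster as a whole. Its sites had a median percentile of 38.2 in the combined list, below the cluster's median of 59.1, and a highest combined LOD of 16.6. The second window, chr19:23520001-23530000 on the minus strand, had 1705 nt and 23, 19 and 24 sites. Its median percentile was similarly low at 39.6, but its highest combined LOD was 21.1.

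The next 4 windows combined crowding with higher median percentiles. Window chr19:21370001-21380000 on the plus strand had 1375 nt from 24, 25 and 24 sites, with a median percentile of 64.7. Window chr19:23400001-23410000 on the minus strand had 1360 nt from 26, 28 and 31 sites, at percentile 75.4. In chr19:21910001-21920000 on the minus strand there were 1315 nt from 25, 38 and 39 sites, at percentile 79.4. The sixth, chr19:24120001-24130000 on the plus strand, had 1255 nt from 22, 39 and 40 sites, at percentile 77.3. The remaining 4 of the first 10 windows had 985, 940, 935 and 910 nt, at percentiles 67.3, 58.9, 49.3 and 66.3. Among the 10 windows, replicate 1 had fewer sites than replicate 3 in all but the one starting at 21370001, where both had 24.

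**Figure D3:**
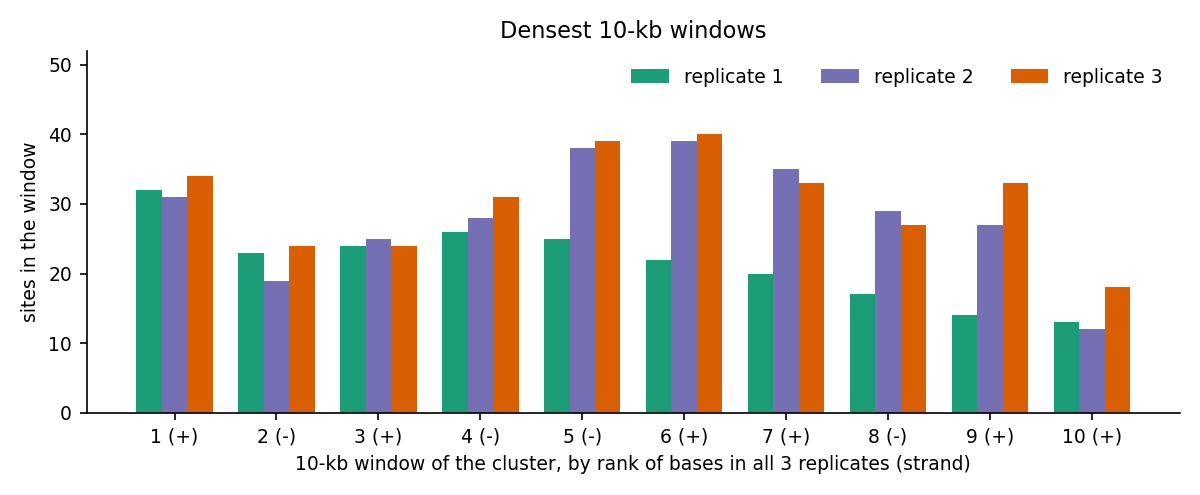
Number of sites in each replicate in the 10 cluster windows of 10 kb with the most bases called in all 3 replicates, in rank order with the strand in brackets. Replicate 1 is close to the others in the first window (32, 31 and 34 sites) and well below them in the fifth (25, 38 and 39).

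Whether cluster sites recurred more often than other chromosome 19 sites depended on the list they were counted from. A site counted as recurrent if it shared at least 1 nt on the same strand with a site in both other replicates. Of replicate 1 sites in the cluster, 778 of 853 (91.2%) were recurrent, against 85.8% in the rest of chromosome 19 and 89.1% genome-wide. For replicate 2 the count was 671 of 1705 (39.4%), against 45.3% in the rest and 37.8% genome-wide. For replicate 3 it was 677 of 2122 (31.9%), against 34.7% in the rest and 28.4% genome-wide. The difference from the rest was 5.36, -5.98 and -2.82 percentage points, a mean of -1.15 ± 5.85 (SD, n = 3), smaller than the spread between lists. With the rest weighted to the score deciles of the cluster sites the mean difference was -3.4 ± 6.99 points (SD, n = 3). Weighted to their widths it was -4.17 ± 8.44 points (SD, n = 3). Without replicate 1, when only 1 other list is asked for, the mean difference was 4.00 points.

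Cluster sites of replicates 2 and 3 were found in each other's list more often than other sites of the chromosome and in replicate 1 less often. Replicate 3 overlapped 89.0% of replicate 2 cluster sites, against 86.1% in the rest, and replicate 2 overlapped 70.6% of replicate 3 cluster sites, against 65.5%. Replicate 1 overlapped 40.6% of replicate 2 cluster sites, against 47.4% in the rest, and 32.6% of those of replicate 3, against 36.3%. Sites found in no other replicate were fewer in the cluster for each list, at 2.93%, 9.74% and 28.7% in replicates 1, 2 and 3, against 6.10%, 11.8% and 32.9%. These shares were not weighted for width, score or density. Recurrence was also compared at the ends of the score range. Among sites in the top 10% of scores, 103 of 103 in replicate 1 (100%), 93.7% in replicate 2 and 75.6% in replicate 3 were recurrent, against 98.0%, 94.6% and 76.4% in the rest. In the bottom 10% the shares were 50.9%, 17.8% and 15.4%, against 54.0%, 25.1% and 25.0%.

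A stricter match gave a lower recurrence in the cluster for every list. With at least 50% of each interval shared, partners in both other lists were found for 38.3%, 21.6% and 16.8% of cluster sites in replicates 1, 2 and 3. In the rest the shares were 53.6%, 32.6% and 24.5%. The mean difference was -11.3 ± 3.77 percentage points (SD, n = 3), larger than the spread between lists. With the rest weighted to the widths of the cluster sites it was -12.3 ± 2.83 points (SD, n = 3).

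**Figure D4:**
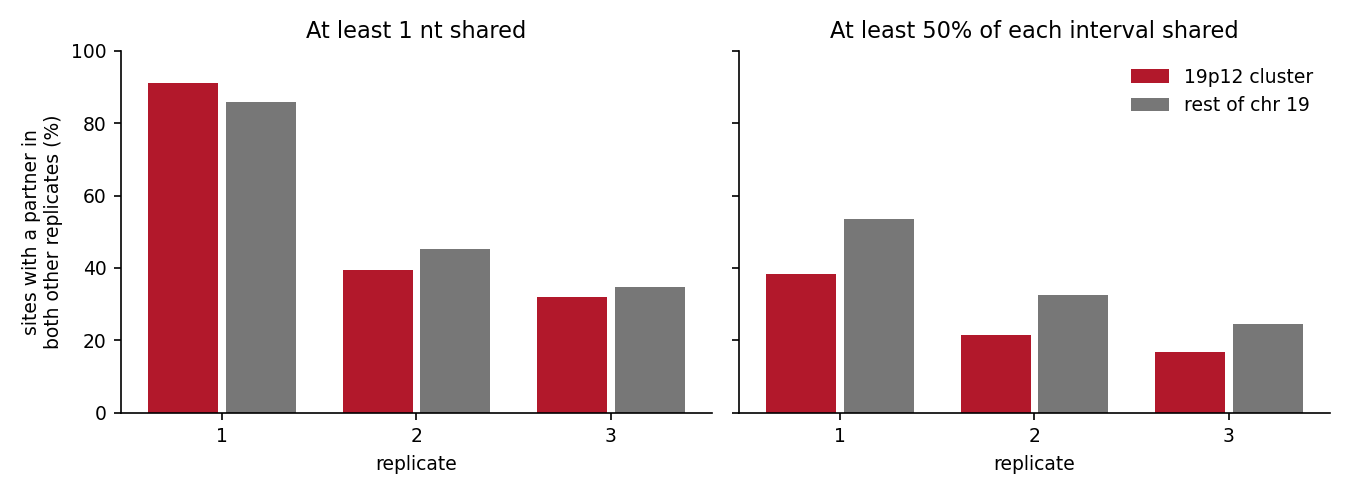
Percentage of sites of each replicate with a same-strand partner in both other replicates, in the 19p12 cluster (red) and the rest of chromosome 19 (grey), for a shared length of at least 1 nt (left) and of at least 50% of each interval (right). On the left the order of the bars differs between replicates, and on the right the cluster is lower in all 3, for example 38.3% against 53.6% in replicate 1.

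The extents of partner sites differed more in the cluster, chiefly between replicate 1 and the others. Where a replicate 1 site had a partner in replicate 2, the median widths were 45 and 95 nt in the cluster and 45 and 75 nt in the rest. The part shared was a median of 50% of the span of both sites in the cluster and 64.3% in the rest. For replicates 1 and 3 the widths were 45 and 95 nt in the cluster and 45 and 70 nt in the rest, and the shared part was 48.0% and 63.6%. For replicates 2 and 3 the shared part was 76.5% in the cluster and 77.8% in the rest. Of the replicate 2 cluster sites with a replicate 1 partner, 92 of 693 (13.3%) covered at least 2 replicate 1 sites, against 6.49% in the rest, and for replicate 3 it was 85 of 692 (12.3%), against 6.05%. Scores of the paired sites correlated with Pearson's r of 0.557, 0.484 and 0.699 for replicates 1 and 2, 1 and 3, and 2 and 3, over 807, 799 and 1517 cluster sites, with Spearman's rho of 0.542, 0.447 and 0.670. In the rest of the chromosome r was 0.569, 0.540 and 0.702. Neighbouring sites may come from the same transcript, so these coefficients are given without a p-value or interval. The intervals given below for shares treat each site or called stretch as independent, so they may be too narrow.

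Over bases, a smaller part of the called sequence was common to all 3 replicates in the cluster. Of 174 kb called in any replicate, 39.7 kb (22.8%) was called in all 3, 73.0 kb (41.9%) in 2 and 61.4 kb (35.2%) in 1. In the rest of chromosome 19 the shares were 26.5%, 33.7% and 39.8%. The difference for bases in all 3 was -3.72 percentage points (95% Newcombe interval -5.55 to -1.80, with called stretches as the unit and counting error only). Without replicate 1 it turned, with 63.8% of the bases called in both remaining lists in the cluster and 58.7% in the rest, a difference of 5.08 points. Against all other chromosomes it was 1.14 points. With equal numbers of top-scoring sites from each list it was -1.04 points (25.6% against 26.6%), outside the interval given above.

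In the combined list, the share of cluster sites that overlapped all 3 replicates was close to that of the rest of the chromosome, but this depended on how sites were matched and weighted. The count was 653 of 2382, which is 27.4% (Wilson 95% limits 25.7 and 29.2, covering counting error only), against 27.8% in the rest and 22.9% genome-wide. The difference of -0.409 points had an interval of -2.31 to 1.55 points. Sites in 2 replicate lists were more frequent, at 33.5% (31.6 to 35.4) against 26.8% (26.1 to 27.5). Those in 1 list were 30.9% against 34.4%, and those in none 8.23% against 11%. For cluster sites found in all 3 lists, LOD had a median of 12.0 and width one of 105 nt, against 11.4 and 80 nt in the rest. The difference was -3.6 points with the rest weighted to the cluster's score deciles, -6.45 points weighted to its widths and -5.76 points with at least 50% of each interval shared. Without replicate 1 it had the other sign, with 59.4% of cluster sites in both remaining lists, against 52% in the rest.

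The authors' p filter kept 57.1% of the 2382 combined cluster sites (1360, counted by overlap with a filtered site; Wilson 95% limits 55.1 and 59.1), against 54.5% in the rest and 52.3% genome-wide. The filtered list is not a subset of the combined intervals. All of its 1610 cluster sites overlapped a combined site, 176 of them (10.9%) had the same ends as one, and 184 combined sites held at least 2 filtered sites. By the number of replicate lists overlapped, the kept share was 99.2% for cluster sites in 3 lists, 69.0% for 2 lists, 19.9% for 1 list and 7.65% for sites in no list. In the rest the shares were 97.8%, 67.6%, 23.8% and 8.85%. The difference of 2.62 points (interval 0.473 to 4.75) turned to -2.68 points when the rest was weighted to the score deciles of the cluster sites and to -3.07 when weighted to their widths. The kept share of bases was 49.9% in the cluster and 48.5% in the rest.

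The 10 strongest cluster sites found in all 3 replicates lay between positions 21291556 and 24285230, none of them in the first megabase of the region. The highest combined LOD, 25.0, was at chr19:24285156-24285230 on the plus strand, with LOD scores of 14.2, 10.4 and 8.19 in replicates 1, 2 and 3, at percentiles 100, 99.9 and 99.8 of their lists (rounded). The minus-strand site chr19:21906616-21906775 followed at a combined LOD of 22.5, and the replicate percentiles were 98.9, 99.8 and 99.9. These 2 sites stood near the top of every list, which the choice by combined score favours. At chr19:23838871-23839030 on the minus strand, with a combined LOD of 22.3, the replicate 1 score stood only at percentile 76.7, against 99.6 and 99.9 in replicates 2 and 3. Combined LOD was 21.5 at chr19:21473656-21473770, also on the minus strand, with replicate percentiles of 96.5, 99.8 and 99.8. The fifth, chr19:22017126-22017200 on the minus strand, had 21.3 and percentiles of 98.1, 99.0 and 96.7.

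Among the other sites of the first 10, some were much narrower in replicate 1 than in replicates 2 and 3. At chr19:23521266-23521570 on the minus strand (combined LOD 21.1) the site was 145 nt wide in replicate 1 and 295 and 290 nt in replicates 2 and 3. At chr19:21561706-21562110 on the plus strand (combined LOD 20.4) it was 170 nt wide in replicate 1, at percentile 80.0, and 405 and 380 nt in the others, at percentiles 98.2 and 99.3. The remaining 3 were chr19:23923466-23923635 on the minus strand (21.0), chr19:21291556-21291645 on the plus strand (20.9) and chr19:23451101-23451205 on the minus strand (20.8). The p filter kept all 10, but it kept 99.2% of all cluster sites found in 3 lists and 97.8% of those in the rest. Each of the 10 had between 19 and 30 further combined sites of its strand within 5 kb, a count not compared with other sites. The minus strand held 7 of the 10.

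Spacing at multiples of the 84-nt finger repeat was no more frequent in the cluster than in the rest of chromosome 19. Among pairs of same-strand site starts up to 1000 nt apart, 11.6% of 1349 pairs in replicate 1, 12.9% of 3487 in replicate 2 and 12.0% of 4754 in replicate 3 lay within 5 nt of a multiple of 84 nt in the cluster. In the rest of chromosome 19 the shares were 13.3%, 13.0% and 12.8%. The mean difference was -0.833 ± 0.823 percentage points (SD, n = 3), with no excess in the cluster. Of the 200 distances on the 5-nt grid up to 1000 nt, 24 (12%) lie within 5 nt of such a multiple. Pairs were not spread evenly over these distances, with few at the shortest, so 12% is not an expected share. The rest of the chromosome also holds zinc finger genes, so the comparison does not set sites in fingers against sites outside them. The share of sites that lie in finger-coding sequence was not determined, and site starts are known only to the 5-nt grid.

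**Figure D5:**
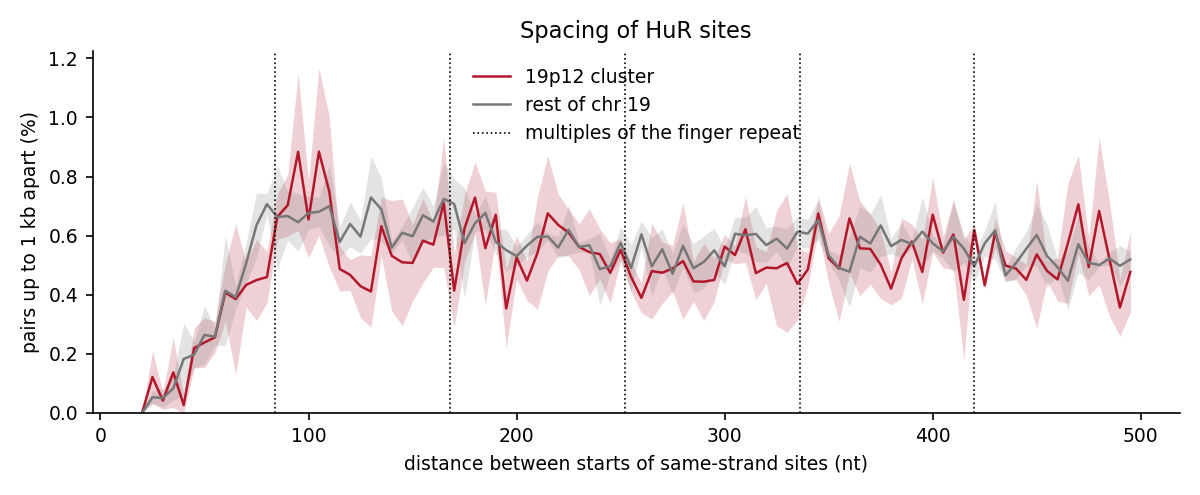
Percentage of same-strand pairs of site starts at each distance (nt, on the 5-nt grid), as mean (line) ± SD (band) over the 3 replicates, in the 19p12 cluster (red) and the rest of chromosome 19 (grey). Dotted lines mark multiples of the 84-nt finger repeat, and the share of pairs within 5 nt of one, counted up to 1000 nt, is 11.6% to 12.9% in the cluster and 12.8% to 13.3% in the rest.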

How the data were processed

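DO-RIP-seq sites of HuR from HEK293 cells were taken from 5 deposited interval lists, 1 for each of 3 HuR replicates (numbered by their titles) and 2 for the replicates combined. The authors' LOD score is the only value deposited, and the sources used here do not say how intervals were called or scored. The tools named are cutadapt 1.0 and TopHat2 2.0.8 and the build is hg19 (GRCh37), per the submitters' processing notes. Per the names of the lists, LOD is above 0, and 1 combined list was limited at p 0.05. Scores of cluster and rest were compared as percentiles within a list and, for combined sites by number of replicate lists, also as median LOD. For paired sites, LOD scores were correlated between lists. No read depth was available for precision.

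Overlaps, densities, windows and spacing were computed with pandas 2.3.3, scipy 1.17.1 and numpy 2.4.6 under Python 3.11.15, with code tested on simulated data. Overlap needed 1 nt on the same strand. Stretches over 1 Mb without a site did not count as length. Comparisons give values per list with SD, and shares of the combined list have 95% intervals that treat sites as independent.

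The members and measures were chosen with earlier results of these data known. Runs, strand shares of bins, megabase ranks, opposite-strand overlaps, multiple partners and the extents of paired sites were chosen after values were seen. The rule for named items takes the 10 windows and 5 bins with the most bases in all 3 replicates, the 3 bins with the fewest (a tie among 15, so none is singled out), the 10 highest combined scores found in all 3 replicates and the 3 longest site-free stretches. Genes and sequence at sites were not analysed, because the annotation at hand is on GRCh38. Alternatives varied the comparison set, score threshold, overlap, length, strand, windows and replicates.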

Additional observations from a re-analysis of the deposited data

How the results depend on the processing

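The 11 results were recomputed under alternatives that gave 116 values: 90 lay within bounds, 20 moved and 6 reversed a direction. In all, 13 values had the opposite sign to the reported one: 4 for recurrence, 3 for combined sites in all 3 replicates, 2 for bases in all 3 and 4 for the p-filtered share. The first 2 results had no settled direction, with lists or an interval on both sides of 0. The bound was the SD between lists, a 95% interval for single shares, or 1.5-fold for windows, and SDs over 3 lists are wide. Against all other chromosomes, the density ratio was 2.55, the covered base ratio 2.92, the difference in bases in all 3 replicates 1.14 points, in combined sites in all 3 4.69, in p-filtered share 4.86 and in same-strand neighbours 0.708. The density ratio was 1.73 against the long-arm side, 2.01 over the full length, 2.05 with equal numbers of top-scoring sites and, chosen after seeing the data, 1.33 without the densest megabase (covered bases 1.43). With at least 50% of each interval shared, recurrence differed by -11.3 points, combined sites in all 3 by -5.76 and the p-filtered share by -1.75. Adding the width weighting, also chosen after seeing the data, gave -12.3 and -7.71. Weighted to score deciles, combined sites in all 3 differed by -3.60 and the p-filtered share by -2.68, and weighted to widths by -6.45 and -3.07. At LOD above 2 the p-filtered share differed by -0.0831. With equal numbers of sites, bases in all 3 differed by -1.04. With windows shifted by 5 kb the share of top windows was 6.25%. Without each replicate in turn, bases in all remaining lists differed by -6.91 to 5.08 points and combined sites by -1.17 to 7.45, both highest without replicate 1. For these shifts the cause was not tested. Unknown depth limits statements on missing sites. No paired analysis was possible because no result comes from a test between sample groups. Cluster and rest were compared within each list.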

Other observations

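Few sites overlapped a site on the opposite strand. In the cluster, 4 of 853 in replicate 1, 7 of 1705 in replicate 2 and 10 of 2122 in replicate 3 did so within the same list, or 0.469%, 0.411% and 0.471%. In the rest of chromosome 19 the shares were 0.147%, 0.254% and 0.626%, so the order differed between lists. In the leading window, chr19:21300001-21310000, 5 combined sites lay on the minus strand beside 35 on the plus strand, whereas 7 of the first 10 windows had none on the other strand. On chromosome 19, the megabase with the most sites lay outside the 19p12 cluster, at chr19:37000001-38000000, with 383, 791 and 1114 sites in replicates 1, 2 and 3, so the most crowded megabase of the cluster led it by 4 sites in replicate 1 and trailed it in replicates 2 and 3.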
